A study of Mus musculus with 6 samples.

Results

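Lymphatic endothelial cells of the postnatal mouse lung were described in 4 single-cell libraries. A lung barcode was taken as lymphatic when it had at least 1500 unique molecular identifiers (UMIs, 1 per captured transcript) in the Bdnf libraries or 700 in the Hgf libraries and at most 25% of its UMIs from mitochondrial genes. It also needed a UMI of at least 3 of the 6 genes Ccl21a, Mmrn1, Reln, Prox1, Flt4 and Thy1, among them Prox1, Mmrn1 or Reln, and at most 1 UMI in total from Col1a2, Ptprc, Etv5 and Rtkn2, which mark fibroblasts, leukocytes, type 2 and type 1 alveolar epithelium. These limits were met by 532 of the 70426 lung barcodes that passed the limits on depth and mitochondrial share, and the whole series holds 78318 such barcodes. The cells were thus chosen by the measured UMIs of 10 genes, so the levels of these genes in them are a description and nothing rests on them.

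The study asked what pericytes give to neighbouring cells during organ growth, and removed the genes for BDNF, HGF or Nodal from cells with activity of a Pdgfrb(BAC)-CreERT2 transgene. Lungs at postnatal day (P) 21 came from Bdnf lox/lox controls, Bdnf iPCKO mutants, Hgf lox/lox controls and Hgf iPCKO mutants (inducible pericyte knockouts, which carry the same floxed alleles and the transgene). Cortex at P12 came from Nodal lox/lox controls and Nodal iPCKO mutants and is used here only to count barcodes that meet the same limits. Tamoxifen (50 µg per dose, 3 daily doses starting at P1) is listed in the labels for mutant and control samples alike, the labels give the controls by their floxed alleles only, and lung cells were depleted of CD45+ and Ter119+ cells. Tissue of 2 mice was pooled into 1 library for each genotype, about 40000 cells were prepared from it, and animals were used irrespective of sex. With 1 library per genotype no difference between genotypes has a replicate check, and no p-value is given. Intervals in parentheses are exact 95% intervals (Poisson for levels, Clopper-Pearson for shares, conditional exact for ratios) and cover counting error only.

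Lymphatic capillaries take up fluid, macromolecules and immune cells from tissue and pass them to collecting vessels whose valves keep lymph moving one way. The transcription factor PROX1 sets and keeps the lymphatic state, VEGF-C acts through its receptor VEGFR3 (encoded by Flt4) to drive growth of these vessels, and the chemokine CCL21 draws dendritic cells and T cells bearing CCR7 into them. In the lung, lymphatic vessels run along airways and larger vessels and clear fluid from the airspaces after birth.

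Ccl21a, the chemokine gene among the markers, has nearly identical copies, and its measured level depends on how reads are divided among them, so the sequences are shown first. In the GRCm39 annotation (Gencode vM39) Ccl21a lies on chromosome 4 from 42772859 to 42773995 on the minus strand, and the copies on the plus strand are Ccl21b (42255693 to 42256825), Ccl21d (41903610 to 41904743), Ccl21e (42612121 to 42613253, Gm10591 in the files) and Ccl21f (42114817 to 42115917, Gm13304 in the files). The coding sequences have 399 bases each, the 4 copies share 1 coding sequence, and it departs from that of Ccl21a at 2 bases, T84A and C194T, counted from 1 at the A of the start codon. Both stretches are given for Ccl21a and for Ccl21b, with the differing base in capitals. Positions 75 to 104 are chr4:42773727-42773756 (minus strand) in Ccl21a and chr4:42255929-42255958 (plus strand) in Ccl21b.
Ccl21a, positions 75 to 104: tggagggggTcaggactgctgccttaagta
Ccl21b, positions 75 to 104: tggagggggAcaggactgctgccttaagta
Positions 189 to 218 are chr4:42773519-42773548 (minus strand) in Ccl21a and chr4:42256137-42256166 (plus strand) in Ccl21b.
Ccl21a, positions 189 to 218: gttctCaccccggaagcactctaagcctga
Ccl21b, positions 189 to 218: gttctTaccccggaagcactctaagcctga

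The 4 libraries held 117 lymphatic cells in the Bdnf control, 114 in the Bdnf iPCKO, 161 in the Hgf control and 140 in the Hgf iPCKO library, and series of 4 values below keep this order. These were 0.699 (0.578 to 0.837), 0.480 (0.396 to 0.576), 1.14 (0.973 to 1.33) and 0.885 (0.745 to 1.04)% of passing barcodes. Against 3781, 5056, 4726 and 6710 blood endothelial barcodes of the same libraries (at least 4 of 9 general endothelial genes and no UMI of Prox1, Mmrn1 or Reln), there were 3.09 (2.55 to 3.72), 2.25 (1.86 to 2.71), 3.41 (2.89 to 3.99) and 2.09 (1.75 to 2.47) lymphatic cells per 100 blood endothelial cells. The 9 general endothelial genes were Pecam1, Cdh5, Egfl7, Cldn5, Tie1, Clec14a, Ptprb, Calcrl and Ramp2. Both mutant libraries had fewer lymphatic cells than their controls by either measure. The intervals per 100 blood endothelial cells overlap in the Bdnf pair and not in the Hgf pair. Those of the shares of passing barcodes overlap in the Hgf pair and not in the Bdnf pair. Each genotype is 1 pooled preparation, and the part of preparation in these shares cannot be told apart from that of genotype. The lymphatic cells had median depths of 7026, 4694, 3654 and 3160.5 UMIs, and the control library was the deeper one in both pairs. Passing barcodes were also thinned to an equal number of UMIs, and shallower ones were left out. The same marker and exclusion limits were then met by 130, 140, 157 and 128 barcodes, or 0.776, 0.589, 1.270 and 1.005%, so both mutant libraries stayed below their controls. No interval was computed for these shares. Thinning also lowers the UMIs of the exclusion genes and so can let barcodes in. Before it, 19, 19, 11 and 8 barcodes that met the other limits were left out for 2 exclusion UMIs, and 20, 49, 15 and 7 for more.

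In all 4 libraries the cells carried the marker genes together. All 6 markers were found in 79.5, 78.9, 73.3 and 62.9% of the cells, and only 11, 0, 7 and 9 cells had exactly 3. Prox1 (chromosome 1 from 189850232 to 189904637) was found in 89.7, 97.4, 91.9 and 82.9% of them, at 866, 1253, 961 and 799 CPM, where CPM are the UMIs of a gene summed over the cells, per 1000000 of their UMIs. Flt4 stood at 1122, 1186, 1236 and 1058 CPM, against 102, 93.0, 95.3 and 121 CPM in blood endothelium, where Flt4 is not excluded by the choice. Mmrn1, the gene of the extracellular protein multimerin 1, had 3664, 4151, 4539.9 and 6592 CPM, and Reln, which encodes the secreted glycoprotein reelin, had 1068, 1422, 1428 and 2664 CPM. Both were highest in the Hgf iPCKO library. Thy1, a surface glycoprotein of lymphatic but not blood endothelium, had 1071, 913, 1329.8 and 867 CPM. Cdh5 (VE-cadherin) and Pecam1, which all endothelium expresses, were at 617, 669, 628 and 494 and 1038, 997, 772 and 881 CPM. The 6 markers chose the cells and so do not check their label. Of 18 further genes of lymphatic identity that the rule did not use, each had a UMI in every library, and 15 were past 2-fold higher than in blood endothelium in all 4, as were 477 (3.63%) of the 13138 genes compared. The list was chosen with earlier results of these data known, and the blood group lacks Prox1, Mmrn1 and Reln by definition. This count is therefore a description too.

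**Figure D1:**
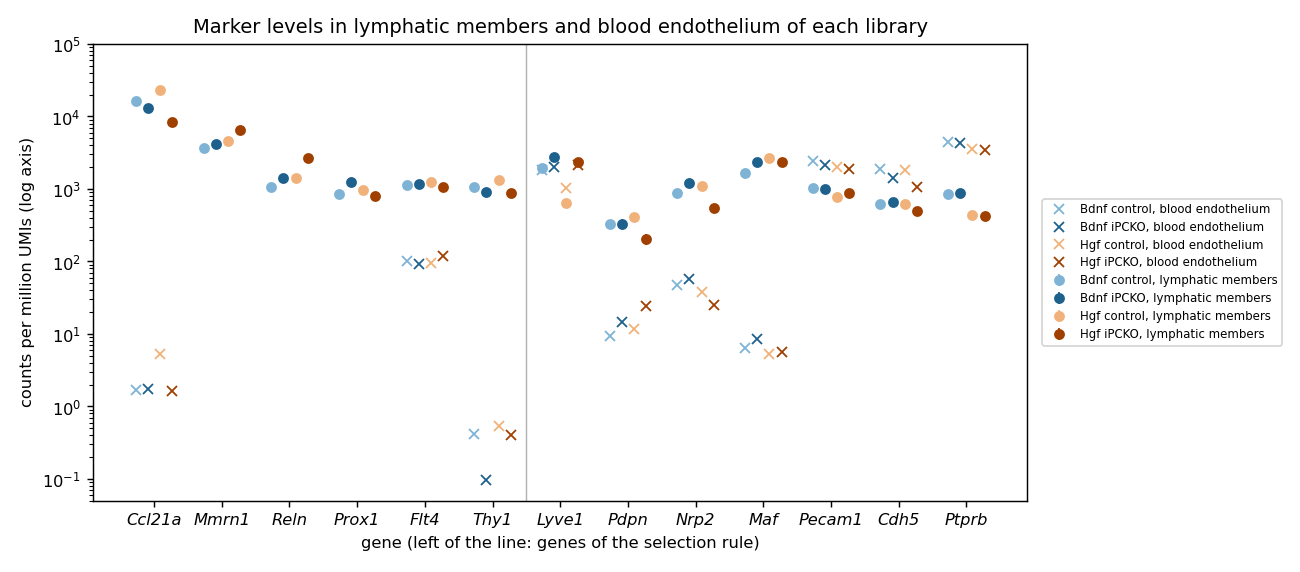
Levels of the 6 marker genes (left of the line) and of further lymphatic and general endothelial genes in lymphatic cells of each library (points, CPM on a log axis, with exact Poisson 95% intervals that are mostly smaller than the points) and in blood endothelium (crosses, not drawn for Prox1, Mmrn1 and Reln, which define that group by their absence). Ccl21a runs from 8461 CPM in the Hgf iPCKO to 23081 CPM in the Hgf control library, and Lyve1 is at 633 CPM in the Hgf control library against 1977 to 2727 CPM in the others. Pecam1, Cdh5 and Ptprb are among the 9 genes that chose the blood endothelium.

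Barcodes with 2 of the 6 markers that met the other limits numbered 57, 67, 28 and 54 and had 31.2, 20.2, 224 and 18.6 Ccl21a CPM. The cells just inside, with 3 markers, had 393 Ccl21a CPM in the Bdnf control, 9842 in the Hgf control and 3179 in the Hgf iPCKO library, and there were none in the Bdnf iPCKO library. Cells with all 6 markers had 19399, 14181, 24153 and 9195 CPM. In the Bdnf control library the 3-marker cells had 151 Mmrn1 and 897 Cdh5 CPM, against 4348 and 551 CPM in cells with all 6. In the Hgf control and Hgf iPCKO libraries the 3-marker cells had 1682 and 2293 Mmrn1 CPM, against 4679 and 6936. Whether the 3-marker cells are lymphatic was not tested. In the cortex 13 control and 39 mutant barcodes met the same limits, none of them with all 6 markers.

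UMIs of epithelial genes were present at a low share in most of the lymphatic barcodes and at a high share in only a few. Genes of airway and type 2 alveolar (AT2) cells, 14 in all, gave a median of 0.123, 0.169, 0.114 and 0.139% of a lymphatic cell's UMIs, but up to 28.3, 3.80, 2.56 and 15.2% in single barcodes. The deepest lymphatic barcode of the Bdnf control library had 54224 UMIs, 5.29% of all lymphatic UMIs there, with 4.93% of them from these epithelial genes, 7 Ccl21a UMIs, no Cdh5 UMI and all 8 of a set of cycling genes. That of the Hgf iPCKO library had 16352 UMIs, 2.86% of all lymphatic UMIs there, with 4.96% from these epithelial genes, 10 Ccl21a and 2 Cdh5 UMIs. Whether either barcode holds a lymphatic cell was not tested. Marker lists of other cells were not at 0 in the lymphatic cells. The 6 airway genes summed to 3758, 1178, 882 and 3207 CPM and the 8 AT2 genes to 4047, 968, 950.3 and 1356 CPM. The 8 immune genes summed to 939, 135, 206 and 89.2 CPM, nearly all of it Lyz2 at 938, 134, 199.9 and 87.5 CPM, with 6, 6, 4 and 6 of the 8 at 0. The 8 mural genes summed to 7.81, 7.81, 1.56 and 17.5 CPM, with 6, 5, 7 and 4 at 0, and the 6 mesothelial genes to 161, 12.5, 7.78 and 19.3 CPM. Airway, AT2, immune and mesothelial sums were all highest in the Bdnf control library, and their part in the ratios of the pairs was not tested. The counts of each pair and many of the named genes are also given for a stricter group, chosen after these values were seen, with at least 5 of the 6 markers and under 1% epithelial UMIs. It holds 96, 105, 140 and 116 cells. Its low epithelial values follow from its definition. Libraries of the pairs shared 243 to 432 passing barcodes and no lymphatic barcode, and a doublet caller (Scrublet), at the lower of the score limits it set for the libraries of a pair (0.246 for Bdnf and 0.450 for Hgf), marked 5, 4, 6 and 4 of the lymphatic cells. Its own limits for the Bdnf iPCKO and Hgf control libraries were 0.376 and 0.822.

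Ccl21a, on the counts as deposited, was lower in both mutant libraries, at 16312, 13176, 23081 and 8461 CPM. The log2 ratio of mutant to control was -0.31 (-0.35 to -0.27) in the Bdnf pair and -1.45 (-1.49 to -1.40) in the Hgf pair, and -0.59 (-0.63 to -0.55) and -1.38 (-1.43 to -1.33) in the stricter cells. The 4 copies took 1.36 (1.19 to 1.54) and 1.14 (0.923 to 1.39)% of the UMIs of the 5 genes in the Bdnf libraries, but 36.7 (36.1 to 37.3) and 36.7 (35.7 to 37.8)% in the Hgf libraries. The division was alike within a pair and far apart between pairs, and what set it was not tested. Summed over the 5 genes, the levels were 16537, 13327, 36469.7 and 13376 CPM, so that the Hgf control library stood far above the other 3. The log2 ratios of the sums, -0.31 (-0.35 to -0.27) and -1.45 (-1.48 to -1.41), were those of Ccl21a alone. Blood endothelium had 2.43, 2.46, 8.87 and 3.16 CPM of the 5 genes. Across cells the median Ccl21a level was 16458, 12443, 22587 and 7885 CPM. As Ccl21a helped to choose the cells, these values are a description.

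Within each library the lymphatic cells were set against blood endothelium as a description, since the choice itself contrasts these groups. Of the 13138 genes, those with at least 30 UMIs over both groups in each library, 477 (3.63%) were more than 2-fold higher and 584 (4.45%) more than 2-fold lower in lymphatic cells in all 4 libraries. Genes of lymphatic identity were nearly all on the high side, 15 of 18, and none on the low side. The 12 highest outside the rule, ranked by the interval bound nearest 0 in the library where it is nearest, were Hoxd8, Duox2, Hoxd9, Maf, Ptx3, Sema3d, Lrrn4cl, Fxyd6, Slc45a3, Dtx1, Mrc1 and Scn3a. They hold a pair of neighbouring homeobox genes, Hoxd8 (chromosome 2 from 74534959 to 74538297) and Hoxd9 (74528008 to 74530552). Hoxd8 had 124, 152, 110.4 and 107 CPM in lymphatic cells and 0, 0.145, 0 and 0.0574 CPM in blood endothelium, and Hoxd9 had 114, 98.5, 70.0 and 91.1 and 0, 0.0482, 0 and 0 CPM. Neither gene was past 2-fold in either pair, and in blood endothelium both had between 0 and 3 UMIs in a library.

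Among the secreted and surface proteins of that list, Ptx3 encodes the pentraxin of innate immunity and had 288, 181, 308 and 121 CPM. Sema3d, a guidance cue, had 466, 472, 487 and 331 CPM, and Mrc1, the mannose receptor best known from macrophages, had 339.8, 289, 487 and 175 CPM. Ptx3 was lower in each mutant library than in its control, with log2 ratios of -0.67 (-0.99 to -0.35) and -1.35 (-1.77 to -0.95), and Mrc1 had -0.23 (-0.50 to 0.03) and -1.47 (-1.81 to -1.15), of which the first interval includes 0. In the stricter cells Mrc1 had 428, 291, 506 and 190 CPM. Maf, a transcription factor, stood at 1678, 2372, 2639 and 2352 CPM against 6.40, 8.48, 5.22 and 5.60 CPM in blood endothelium. Duox2 encodes a dual oxidase that makes hydrogen peroxide and had 152, 191, 138 and 91.1 CPM. Scn3a, a voltage-gated sodium channel gene, had 273, 139, 296 and 166 CPM. Levels of different genes are not compared with each other.

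The 12 lowest were Scn7a, Hpgd, Foxf1, Ly6c1, Tbx3, Vwf, Tspan7, Flt1, Kitl, Pltp, Sp100 and Mgp. Vwf (von Willebrand factor) had 80.1, 18.8, 37.3 and 49.0 CPM against 783, 614, 686 and 591 CPM in blood endothelium. Flt1 (VEGFR1) had 136, 127, 51.3 and 70.1 against 1131, 1209, 923 and 930.3 CPM. Kdr (VEGFR2) was at 811, 1739, 1280.0 and 2105 CPM, against 975, 1248, 1517 and 1375 CPM in blood endothelium. Nrp2, the VEGF-C co-receptor, was higher by 4.23 to 4.85 on the log2 scale. The junction genes included none higher and 7 of 12 lower, and the TGF-beta and BMP genes 1 higher and 8 of 14 lower, among them Smad6 at 45.9, 87.5, 29.6 and 40.3 CPM against 552, 663, 569 and 692. Cdh5, Cldn5 and Pecam1 of the junction list are among the 9 genes that chose the blood group, so the junction count is a description. Over all genes compared, 3.63% were higher and 4.45% lower. Lists of general capillary and venous genes had 4 of 6 lower each and none higher. Against venous blood endothelium alone, 334 of 8083 genes (4.13%) were higher and 424 (5.25%) lower in all 4 libraries. Lyve1, the hyaluronan receptor often used to mark lymphatic vessels, did not separate the groups in this tissue. Its log2 ratio of lymphatic to blood cells ran from -0.72 to 0.44.

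**Figure D2:**
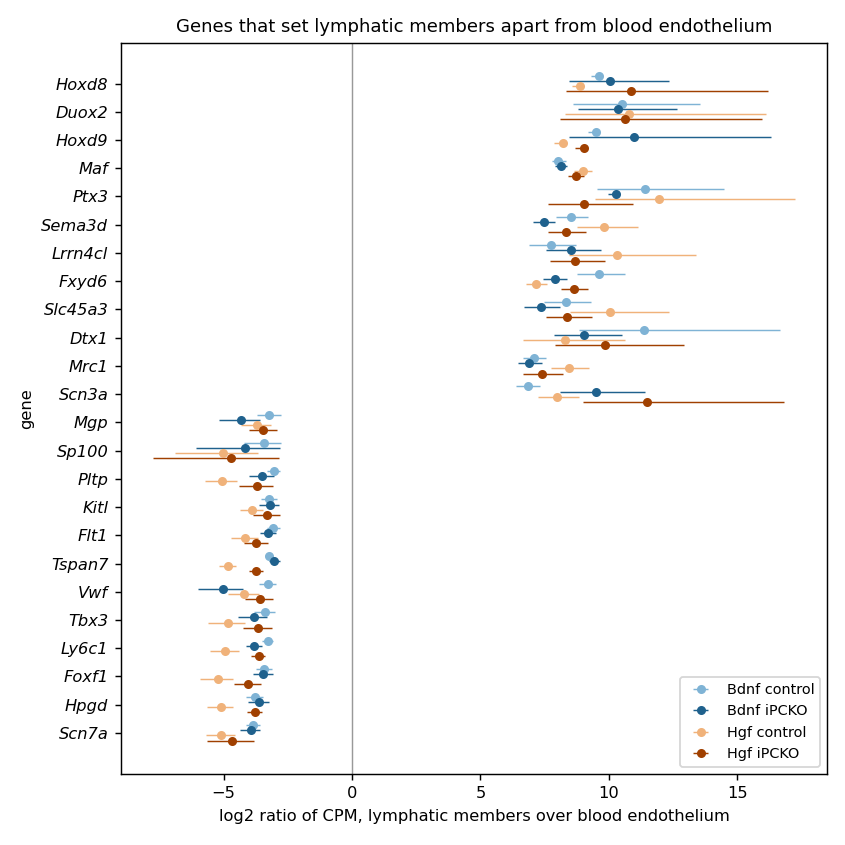
Log2 ratio of CPM in lymphatic cells to CPM in blood endothelium for the 12 highest and 12 lowest genes outside the marker rule (points, 1 colour per library, with conditional exact 95% intervals). Maf lies between 8.03 and 8.98 and Vwf between -5.03 and -3.29 in the 4 libraries. Where a gene had no UMI in blood endothelium (Hoxd8 and Hoxd9 in the controls, for example), the ratio is a lower bound set at a floor of 3 UMIs.

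Lyve1 split the lymphatic cells within each library. It had a UMI in 71.8, 71.9, 37.9 and 70.7% of cells, with a median of 699.95, 1482, 0 and 897 CPM per cell and highest values of 8904, 10997, 9644 and 12542 CPM. The Hgf control library was the one in which most cells lacked it. Cells with at least 1500 UMIs (116, 113, 142 and 126 cells) were also thinned to 1500 UMIs, and shallower cells were left out. The shares were then 58.6, 59.3, 28.9 and 67.5%, so the order of the Hgf pair remained. In the stricter group 68, 78, 54 and 85 cells had Lyve1 and 28, 27, 86 and 31 did not. Cells with Lyve1 were deeper in each library (medians of 7808.5 against 5329.5, 5554 against 2988, 4299 against 3743.5 and 3843 against 2757 UMIs), which itself raises the chance of a UMI of any gene.

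Foxc2, the forkhead factor of lymphatic valves and collecting vessels, was found in 36 of the cells with Lyve1 and 3 of those without it in the Bdnf control library. The numbers were 25 and 6 in the Bdnf iPCKO, 7 and 11 in the Hgf control and 20 and 0 in the Hgf iPCKO library, where 0 of 31 cells leaves room for Foxc2 UMIs in up to 11.2% of such cells. At their median of 2757 UMIs this limits detection, not expression. In levels Foxc2 had 86.9 CPM in cells with Lyve1 and 19.2 CPM in cells without it in the Bdnf control, 96.2 and 123 CPM in the Bdnf iPCKO, 28.0 and 49.0 CPM in the Hgf control and 77.5 and 0 CPM in the Hgf iPCKO library. The order of the levels thus went one way in the Bdnf control and Hgf iPCKO libraries and the other way in the remaining 2. Cldn11, a claudin of valve endothelium, was in 17 and 2, 11 and 3, 7 and 4, and 14 and 1 cells, at 55.8 and 19.2, 45.8 and 114, 40.0 and 20.2, and 62.5 and 11.3 CPM. Nts, which encodes neurotensin, was in 21 and 3, 28 and 7, 12 and 3, and 19 and 0 cells, at 287 and 205, 426 and 684, 132 and 28.8, and 217 and 0 CPM. Both had the higher level in cells without Lyve1 in the Bdnf iPCKO library and in cells with Lyve1 in the other 3. Gata2, also on the valve list, was at 83.7 and 51.2, 165 and 85.5, 79.9 and 69.1, and 150 and 113 CPM. It was thus higher in cells with Lyve1 in each library. Itga9 of the same list was at 440 and 486, 387 and 294, 432 and 481, and 272 and 282 CPM. Its level was higher in cells without Lyve1 in all but the Bdnf iPCKO library. Mrc1 leaned towards the cells without Lyve1 in level, at 356 and 710, 247 and 503, 379.6 and 596, and 172 and 271 CPM.

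**Figure D3:**
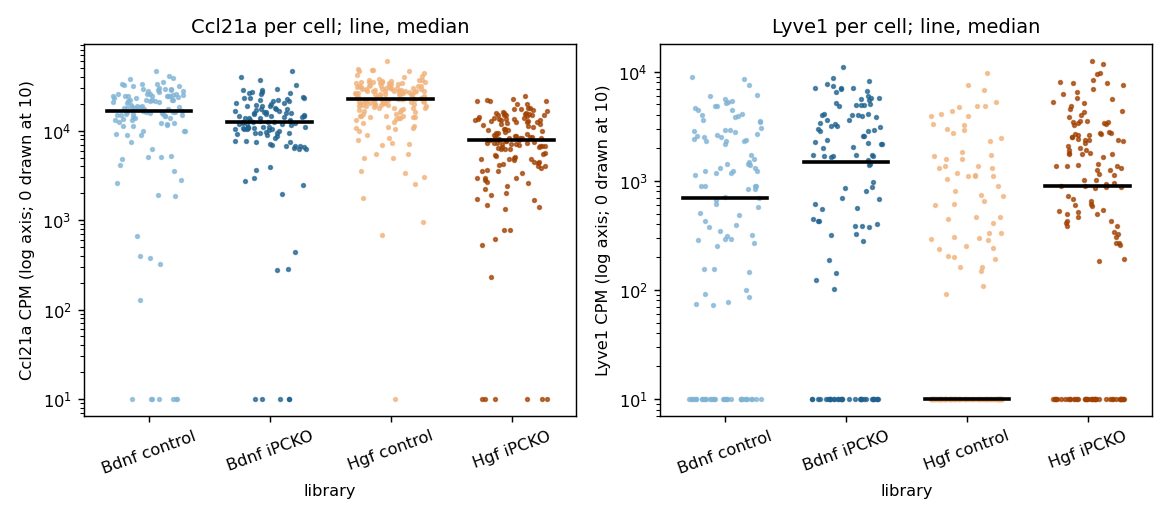
Ccl21a and Lyve1 level of each lymphatic cell by library (1 point per cell, CPM on a log axis with 0 drawn at 10, horizontal line at the median). Ccl21a medians are 16458, 12443, 22587 and 7885 CPM, and the Lyve1 median is 0 in the Hgf control library.

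In the Hgf pair, 3 of 8 genes of fatty acid handling, 6 of 9 of the circadian clock and 7 of 8 of the glucocorticoid response were past 2-fold higher in the Hgf iPCKO lymphatic cells, as was Lyve1. Of interferon-stimulated genes 4 of 7 were lower, and so were Thbs1, Plau and Adam12. Of 6367 genes with at least 30 UMIs over the pair, 286 (4.49%) were more than 2-fold higher and 396 (6.22%) more than 2-fold lower in the mutant, and the median log2 ratio over these genes was -0.06. In the stricter cells 265 of 5923 genes (4.47%) were higher and 369 (6.23%) lower.

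Receptors and identity genes moved unequally in the Hgf pair. Of the 18 identity genes 3 were past 2-fold higher and 2 lower, with a median of 0.05 against -0.06 for all genes. Lyve1 (chromosome 7 from 110448585 to 110462460) went from 633 CPM in the Hgf control to 2366 CPM in the Hgf iPCKO, a log2 ratio of 1.90 (1.74 to 2.07), and 2.09 (1.92 to 2.26) in the stricter cells. In blood endothelium it was 1.03. A UMI of Lyve1 was found in 37.9 and 70.7% of the cells. Fgl2, a fibrinogen-like protein, went from 496 CPM in the Hgf control to 1499 CPM in the Hgf iPCKO with a log2 ratio of 1.60 (1.41 to 1.79) against 0.29 in blood endothelium. Timp3, an inhibitor of metalloproteinases, went from 3188 CPM in the Hgf control to 7335 CPM in the Hgf iPCKO (log2 ratio 1.20, interval 1.13 to 1.28), and its ratio in blood endothelium was 1.42.

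The 2 identity genes past 2-fold lower were Pdpn (podoplanin, the mucin-like protein that separates lymph from blood through platelet CLEC-2) and Nrp2. Pdpn went from 411 CPM in the Hgf control to 201 CPM in the Hgf iPCKO, a log2 ratio of -1.03 (-1.36 to -0.71), while in blood endothelium it was higher, at 1.06. Pdpn is also on the list of type 1 alveolar genes, whose median in blood endothelium of this pair was 0.61. The part of epithelial RNA in these Pdpn values was not tested. Nrp2 went from 1106 CPM in the Hgf control to 543 CPM in the Hgf iPCKO (log2 ratio -1.03, interval -1.22 to -0.83). Both lie close to the 2-fold limit, and in the stricter cells they were at -1.03 (-1.38 to -0.69) and -0.95 (-1.16 to -0.75). Of the VEGF-C pathway 2 of 6 genes were past 2-fold lower and none higher. These were Nrp2 and the ligand gene Vegfa, at -1.41 (-2.05 to -0.81), whereas Flt4 was at -0.23 (-0.38 to -0.07) and Kdr at 0.72 (0.59 to 0.85).

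Of 14 valve and collecting-vessel genes compared, 1 was past 2-fold higher (Fn1) and 1 lower (Gja1), shares close to the 4.49 and 6.22% of all genes. Gja1 encodes connexin 43, a gap junction protein of lymphatic valves. It went from 764 CPM in the Hgf control to 247 CPM in the Hgf iPCKO, a log2 ratio of -1.63 (-1.91 to -1.36), with -1.54 (-1.84 to -1.26) in the stricter cells and -0.13 in blood endothelium. Fn1 (fibronectin) went from 17.1 CPM in the Hgf control to 52.5 CPM in the Hgf iPCKO, a ratio of 1.62 (0.58 to 2.76) that rests on few UMIs. Foxc2 was at 0.70 (-0.08 to 1.49) and Itga9, the integrin subunit of valve leaflets, at -0.83 (-1.13 to -0.54). Angpt2, a Tie receptor ligand needed in lymphatic growth, was at -1.07 (-1.62 to -0.55), and at -0.97 (-1.53 to -0.43) and so under 2-fold in the stricter cells. The receptor genes Tie1 and Tek were at 0.23 (0.08 to 0.38) and 0.26 (-0.21 to 0.73).

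Lipid genes held the top of the ranking. Lpl (chromosome 8 from 69284603 to 69360100) encodes lipoprotein lipase and went from 6.22 CPM in the Hgf control to 175 CPM in the Hgf iPCKO, with a UMI in 2.48 and 15.7% of cells and a log2 ratio of 4.82 (3.41 to 6.72) on 4 control UMIs. In blood endothelium of the same libraries it was at 209.5 and 1728 CPM (3.04), and in barcodes with 10 to 100 UMIs, which hold mostly free RNA, at 42.7 and 335 CPM. The part of free RNA in the lymphatic value was not tested. Fabp4 (chromosome 3 from 10268785 to 10273737), a fatty acid binding protein, differed from Lpl in its blood endothelial values. It went from 42.0 CPM in the Hgf control to 403 CPM in the Hgf iPCKO (log2 ratio 3.26, interval 2.68 to 3.89), found in 14.3 and 57.9% of cells, while in blood endothelium it was at 66.9 and 36.7 CPM (-0.87) and in barcodes of 10 to 100 UMIs at 11.1 and 11.03 CPM. Gpihbp1, which carries lipoprotein lipase to the vessel lumen, was at 1.85 (1.42 to 2.29). In all, 3 of 8 lipid genes were past 2-fold higher and none lower, against 4.49 and 6.22% of all genes. The others included the fatty acid receptor gene Cd36 at 0.32 (0.07 to 0.58).

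**Figure D4:**
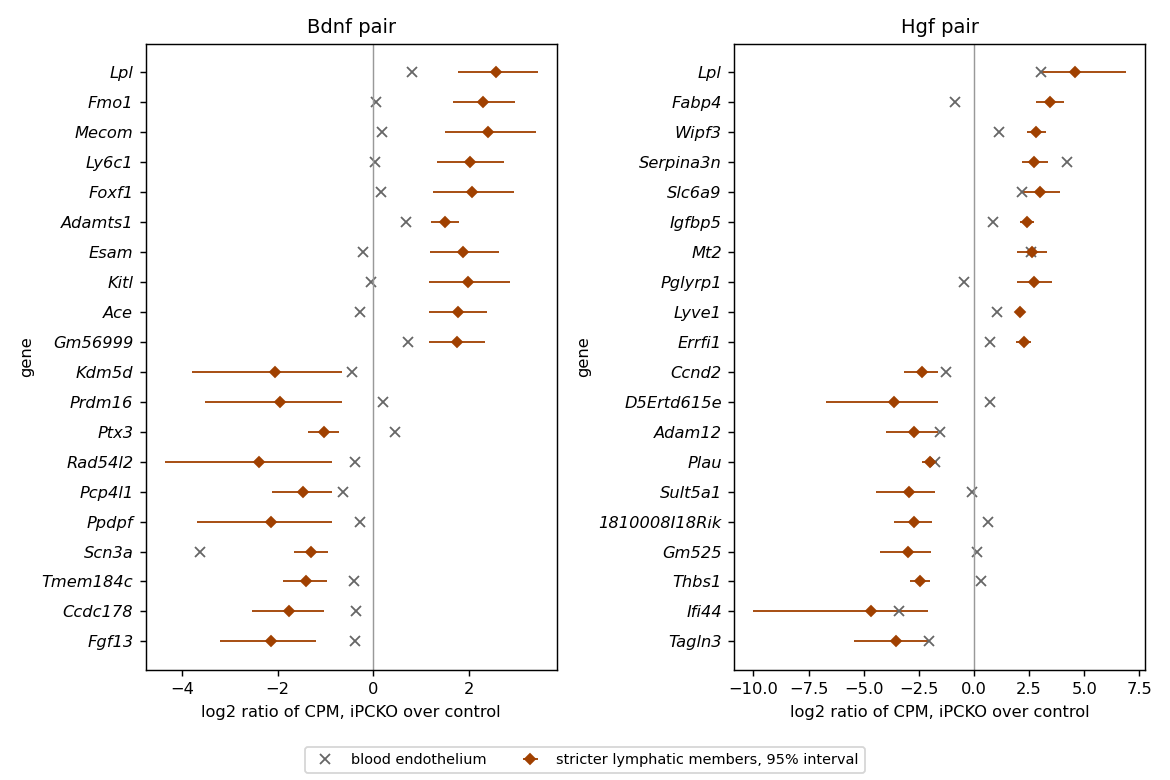
Log2 ratio of iPCKO to control CPM in the stricter lymphatic cells (diamonds, with conditional exact 95% intervals) and in blood endothelium of the same libraries (crosses) for the 10 highest and 10 lowest genes of each pair in the stricter cells. In the Hgf pair Lpl is at 4.59 in lymphatic and 3.04 in blood endothelial cells, while Fabp4 is at 3.43 and -0.87.

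Of 9 circadian clock genes compared in the Hgf pair, 6 were past 2-fold higher and 1 lower, against 4.49 and 6.22% of all genes. The median log2 ratio of the list was 2.31 (2.12 in the stricter cells, 2.45 in blood endothelium, -0.06 over all genes). The 3 PAR bZIP output factors were among the 6: Dbp at 2.41 (1.21 to 3.83), Tef at 2.37 (1.64 to 3.17) and Hlf at 2.42 (1.50 to 3.45). The repressors Nr1d1 (REV-ERB alpha) and Nr1d2 were at 2.66 (1.80 to 3.64) and 2.31 (1.30 to 3.46). Arntl (BMAL1), the activator, was on the other side at -1.12 (-2.28 to -0.07). The same genes differed the same way in blood endothelium of this pair, at 3.76 for Dbp, 4.20 for Nr1d1 and -1.74 for Arntl. The hour of dissection of each library is not given in the sources used here, and its part in these ratios cannot be told apart from that of genotype.

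Tef is shown with its upstream sequence as a clock gene whose windows hold the E-box CACGTG, the letters bound by CLOCK and BMAL1 (the same on both strands). RefSeq lists a pair of start sites for it on GRCm38.p6, and the 250 bases before each are given 5' to 3' on the plus strand with the E-box in capitals.
Tef, chr15:81802423-81802672: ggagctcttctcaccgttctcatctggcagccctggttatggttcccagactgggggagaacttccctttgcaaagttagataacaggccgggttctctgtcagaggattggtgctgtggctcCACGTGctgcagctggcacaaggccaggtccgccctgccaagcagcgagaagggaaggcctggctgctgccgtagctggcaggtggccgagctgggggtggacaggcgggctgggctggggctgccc
Tef, chr15:81811164-81811413: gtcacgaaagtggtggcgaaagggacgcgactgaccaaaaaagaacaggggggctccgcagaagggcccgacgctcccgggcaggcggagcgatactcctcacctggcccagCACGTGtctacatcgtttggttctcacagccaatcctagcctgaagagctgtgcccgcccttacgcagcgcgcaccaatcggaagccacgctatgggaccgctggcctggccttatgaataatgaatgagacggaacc
Searched over the full RefSeq windows, which also hold the first bases after the start, 5 of 14 clock genes matched in RefSeq, of 16 listed, hold the E-box (Bhlhe41, Ciart, Cry1, Per1 and Tef), against 8.09% of 27025 genes and 7.15% of 32851 windows of the same length. The D-box TTATGTAA, searched on both strands, is in the windows of 1 clock gene (Per3) and in 0.938% of all windows. A match is a description of the letters only.

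Glucocorticoid-response genes were past 2-fold higher in 7 of 8 compared in the Hgf pair and none was lower, against 4.49 and 6.22% of all genes. The median of the list was 1.93 in the lymphatic cells, 2.10 in the stricter cells and 1.07 in blood endothelium. Fkbp5, the co-chaperone of the glucocorticoid receptor, went from 24.9 CPM in the Hgf control to 129.6 CPM in the Hgf iPCKO (log2 ratio 2.38, interval 1.59 to 3.26). The metallothionein genes Mt1 and Mt2 were at 2.62 (2.04 to 3.24) and 2.50 (1.92 to 3.13). Errfi1, a feedback inhibitor of EGF receptor signalling, went from 140.0 CPM in the Hgf control to 664 CPM in the Hgf iPCKO (log2 ratio 2.25, interval 1.91 to 2.59) against 0.74 in blood endothelium. Klf15, a glucocorticoid-induced transcription factor outside the list, was among the 10 highest at 4.17 (2.20 to 7.28) on 2 control UMIs. Sgk1 was the list member under 2-fold, at 0.40 (0.10 to 0.70).

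The 10 highest genes were Lpl, Fabp4, Cbr2, Selenbp1, Klf15, Wipf3, Slc6a9, Cyp2f2, Mt1 and Rgcc. Wipf3, a WASP-interacting protein, went from 109 CPM in the Hgf control to 643 CPM in the Hgf iPCKO (log2 ratio 2.56, interval 2.19 to 2.95), and Slc6a9, the glycine transporter, from 26.4 CPM in the Hgf control to 198 CPM in the Hgf iPCKO (log2 ratio 2.90, interval 2.16 to 3.73). Rgcc, a regulator of the cell cycle, was at 3.26 (2.04 to 4.77), with 37.3% of its mutant UMIs in 1 cell. The remaining 3, Cbr2, Selenbp1 and Cyp2f2, are abundant in airway cells. Their ratios of 2.85, 3.27 and 2.76 in all cells stood at 0.20 (-0.17 to 0.57), 0.43 (-0.95 to 1.82) and -0.57 (-1.78 to 0.56) in the stricter group. Its own 10 highest were Lpl, Fabp4, Wipf3, Serpina3n, Slc6a9, Igfbp5, Mt2, Pglyrp1, Lyve1 and Errfi1. Igfbp5, which binds insulin-like growth factors, rested in part on 1 cell. It was at 0.94 (0.74 to 1.14) in all cells, with 46.4% of control UMIs in 1 cell, and at 2.41 (2.09 to 2.74) in the stricter ones.

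The 10 lowest in the Hgf pair were Mfap4, Gm525, Tagln3, Thbs1, Sult5a1, Ifi44, D5Ertd615e, Adam12, 1810008I18Rik and Plau, and 9 of the 10 lowest of the stricter group were the same genes, with Ccnd2 in place of Mfap4. Mfap4, a microfibril gene also expressed by fibroblasts, had no UMI in the mutant cells, and its log2 ratio against a floor of 3 UMIs is -3.24 or lower. Thbs1 (thrombospondin 1, an inhibitor of vessel growth) went from 571 CPM in the Hgf control to 102 CPM in the Hgf iPCKO, a log2 ratio of -2.49 (-2.92 to -2.09), with -2.44 (-2.89 to -2.02) in the stricter cells and 0.31 in blood endothelium. Plau, the urokinase plasminogen activator, went from 644 CPM in the Hgf control to 145 CPM in the Hgf iPCKO (log2 ratio -2.15, interval -2.51 to -1.80) and was lower in blood endothelium too (-1.76). Adam12, a membrane metalloprotease, was at -2.92 (-4.18 to -1.86). Ccnd2 (cyclin D2) was at -2.19 (-2.92 to -1.52). Gm525 went from 126 CPM in the Hgf control to 14.0 CPM in the Hgf iPCKO and had 0.159, 0.121, 0.156 and 0.172 CPM in blood endothelium. Tagln3 had 0.976, 0, 93.3 and 8.76 CPM and Sult5a1 0.976, 0, 94.9 and 10.5 CPM, so that the Hgf control library stood above the other 3 for both.

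Of 7 interferon-stimulated genes compared, 4 were past 2-fold lower and none past 2-fold higher, against 6.22 and 4.49% of all genes. Among the 4 were Gbp2 at -1.38 (-2.37 to -0.47), Xaf1 at -1.38 (-2.37 to -0.47) and Ifi35 at -1.36 (-2.64 to -0.22). The highest member was at 0.90 with its interval above 0, and 6 intervals lay below 0. The median of the list was -1.36 (-1.19 in the stricter cells, with 4 of 7 past 2-fold lower), against -1.18 in blood endothelium. Ifi44, an interferon-induced gene outside the list, went from 51.3 CPM in the Hgf control to 3.50 CPM in the Hgf iPCKO. Of 10 basement membrane and matrix genes compared, 1 was past 2-fold higher (Fn1) and 2 were lower (Sparc and Nid2), with a median of 0.09. Sparc and Nid2 were at -1.19 (-1.34 to -1.04) and -1.38 (-2.03 to -0.77) in lymphatic cells and at 0.21 and 0.19 in blood endothelium.

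**Figure D5:**
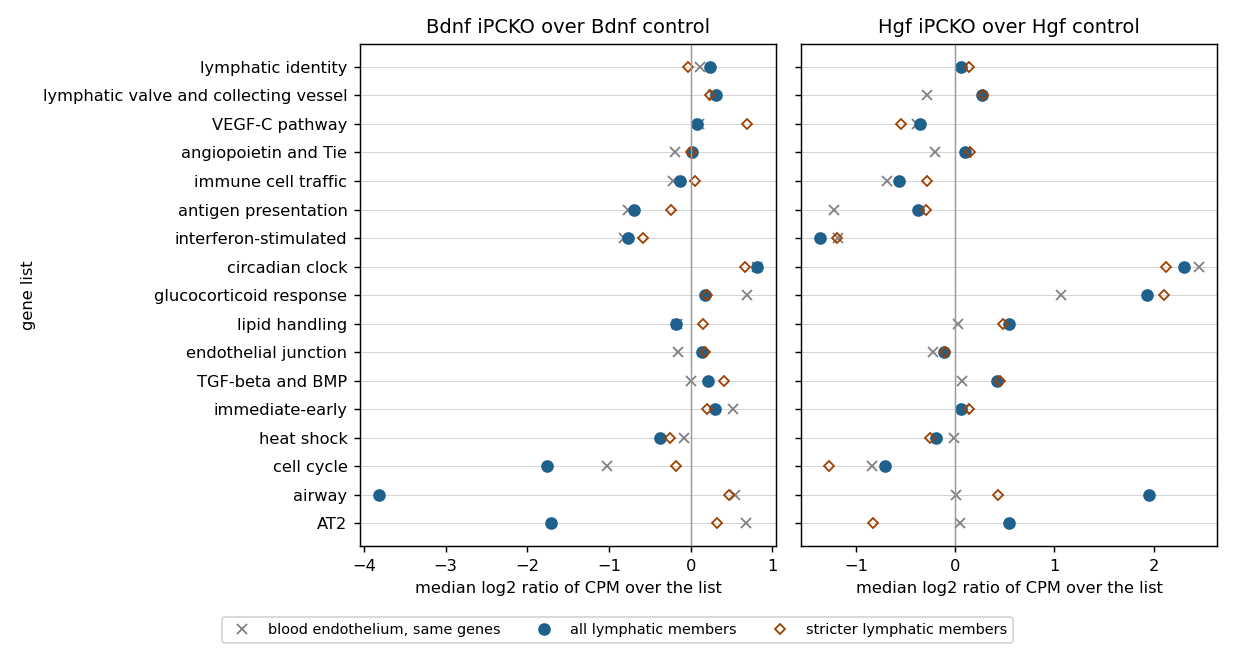
Median log2 ratio of mutant to control over the compared genes of each list, in all lymphatic cells, the stricter group and blood endothelium of the Bdnf pair (left) and the Hgf pair (right). Circadian clock medians in the Hgf pair are 2.31, 2.12 and 2.45 and glucocorticoid medians 1.93, 2.10 and 1.07, while the AT2 and airway lists of the Bdnf pair leave the negative side in the stricter group.

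In the Bdnf pair none of the 18 identity genes and none of 15 valve genes passed 2-fold, while in the stricter cells 1 of 14 valve genes did, Foxc1 at 1.08 (0.30 to 1.89). The rule markers ranged from -0.31 to 0.53. Lpl, as in the Hgf pair, was the highest gene, and Kdr, Adamts1 and Akap12 were higher at levels well above the counting minimum. Of 7592 genes compared, 175 (2.31%) were more than 2-fold higher and 344 (4.53%) more than 2-fold lower in the Bdnf iPCKO, with a median of 0.01, and in the stricter cells 176 (2.61%) of 6739 were higher and 127 (1.88%) lower.

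Lpl went from 25.4 CPM in the Bdnf control to 134 CPM in the Bdnf iPCKO (log2 ratio 2.40, interval 1.76 to 3.10), with 2.57 (1.77 to 3.44) in the stricter cells and 0.81 in blood endothelium. Kdr (chromosome 5 from 76093487 to 76139884) went from 811 CPM in the Bdnf control to 1739 CPM in the Bdnf iPCKO, a log2 ratio of 1.10 (0.97 to 1.23) that was 0.88 (0.74 to 1.02) in the stricter cells and 0.36 in blood endothelium. Adamts1, a secreted metalloproteinase that cleaves versican, went from 193 CPM in the Bdnf control to 517 CPM in the Bdnf iPCKO (log2 ratio 1.42, interval 1.16 to 1.68), with 1.50 (1.20 to 1.80) in the stricter cells. Akap12, an anchoring protein of protein kinase A, went from 584 CPM in the Bdnf control to 1298 CPM in the Bdnf iPCKO, a log2 ratio of 1.15 that was 0.91 (0.75 to 1.07) in the stricter cells, with 15.2% of the mutant UMIs in 1 cell. Fmo1, a flavin-containing monooxygenase abundant in lung capillaries, was at 1.44 (0.98 to 1.90). Its ratio was 2.29 (1.67 to 2.96) in the stricter cells but 0.48 as the mean of the CPM of single cells. Auts2, Nrxn3, Fam135a, Gm49357 and Gm56999 had smaller counts, with log2 ratios from 1.71 to 2.38. After thinning to 1500 UMIs that of Gm56999 was 0.73. Nts was under the limit at 0.94 (0.69 to 1.18).

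The 10 lowest genes of this pair were Scgb3a2, Cyp2f2, Wfdc2, Ces1d, Cbr2, Lyz2, Sec14l3, Aldh1a1, Gstm2 and Gsto1. Of the UMIs of Scgb3a2, a secretoglobin of airway cells, 97.9% in the control library came from 1 barcode, and the top barcode of each gene held 94.6% of Gsto1 and 75.4% of Cyp2f2 UMIs. The airway list had 4 of 5 genes past 2-fold lower and the AT2 list 7 of 7 in all cells. In the stricter cells, whose choice fixes them low, Scgb3a2 was at 1.76 (0.84 to 2.76) and Cyp2f2 at 0.07 (-0.84 to 0.96). Cell-cycle genes went the same way: 6 of 10 were past 2-fold lower, against 4.53% of all genes of the pair. Their median was -1.76, against -1.03 in blood endothelium. In the stricter cells 3 could be compared and none was past 2-fold. Cells with at least 3 of 8 cycling genes numbered 4, 1, 0 and 0, and 1, 1, 0 and 0 in the stricter group.

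In the stricter cells the named genes of the Bdnf pair changed. The 10 highest were Lpl, Fmo1, Mecom, Ly6c1, Foxf1, Adamts1, Esam, Kitl, Ace and Gm56999, of which 4 had been named over all cells. Foxf1, Ly6c1 and Kitl were among the 12 genes lowest in lymphatic against blood endothelium. Of the 584 genes lower in lymphatic than in blood cells, 221 could be compared, 54 of these were past 2-fold higher and 2 lower in the mutant, and the median was 0.48. Over all lymphatic cells the same set had 20 of 299 higher and 44 lower, with a median of -0.02. The set took 3.066% of control UMIs and 3.001% of mutant UMIs over all lymphatic cells of the Bdnf pair. In the stricter cells the shares were 2.19 and 2.95%. They were 14.4 and 13.2% in blood endothelium and 7.79 and 7.87% in barcodes of 10 to 100 UMIs. The stricter choice left out 21 control and 9 mutant cells, of which 17 and 4 had under 5 markers. The part of this uneven removal in the ratios of the stricter cells was not tested. Whether the transcripts of the set belong to the lymphatic cells was not tested. Of the TGF-beta and BMP genes 1 of 14 was past 2-fold higher over all cells and 5 of 14 were in the stricter cells, where 2.61% of all genes were. Over all cells Smad6 was at 0.93 (0.35 to 1.52), Id2 at 0.81 (0.37 to 1.25) and Bmp6 at 1.02 (0.09 to 1.96), and Smad6 was at -0.01 as the mean of the CPM of single cells and Bmp6 at 0.38 with a mitochondrial share of at most 10%. The 5 in the stricter cells included Smad6 at 1.46 (0.75 to 2.20), Id2 at 1.27 (0.74 to 1.82) and Bmp6 at 1.84 (0.63 to 3.21), all of them more abundant in blood endothelium. In the Hgf pair the set of 584 had 33 of 204 higher and 13 lower over all cells, with a median of 0.11. In the stricter cells it had 25 of 170 higher and 13 lower, with a median of 0.01. Of all genes of that pair 4.49% were higher and 6.22% lower over all cells, and 4.47 and 6.23% in the stricter cells.

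The 10 lowest genes of the stricter Bdnf cells were Fgf13, Ccdc178, Tmem184c, Scn3a, Ppdpf, Pcp4l1, Rad54l2, Ptx3, Prdm16 and Kdm5d, and none of these had been named over all cells. Scn3a went from 343 to 140.0 CPM and Ptx3 from 376 to 184 CPM. Prdm16, a zinc finger transcription factor, was at -1.96 (-3.51 to -0.66) and Fgf13, an intracellular FGF-like protein that binds sodium channels, at -2.13 (-3.21 to -1.19). Kdm5d is Y-linked.

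Over all genes of the Bdnf pair 2.31% were past 2-fold higher and 4.53% lower, and 2.61 and 1.88% in the stricter cells. A single gene of a short list is not read as a result about the list. Of 6 interferon-stimulated genes of the Bdnf pair 3 were past 2-fold lower and none higher, with a median of -0.76 in lymphatic cells and -0.82 in blood endothelium. In the stricter cells 2 of 5 were lower, with a median of -0.58. Of 6 antigen presentation genes 1 was past 2-fold lower and none higher, with a median of -0.69. The gene was Cd74, at -2.99 (-4.92 to -1.55) on few UMIs, and none of the 4 genes that could be compared in the stricter cells was past 2-fold (median -0.24). The class I genes had B2m at -0.68 (-0.87 to -0.49) and H2-D1 at -0.70 (-0.86 to -0.55). Of 10 heat shock genes 1 was past 2-fold lower and none higher, with a median of -0.38. This was Hspa1a, at -1.24 (-1.91 to -0.62) and at -1.31 (-2.02 to -0.64) in the stricter cells, but at -0.88 and so under 2-fold in cells with no exclusion UMI. Its near-identical copy Hspa1b was at -0.07 (-0.35 to 0.20), and the value of each is uncertain because reads can be divided between them. Clock genes had a median of 0.82, near the 0.81 of blood endothelium, with 1 of 9 past 2-fold higher (Hlf, log2 ratio 1.21, interval 0.34 to 2.11, but 0.63 and so under 2-fold in cells with no exclusion UMI) and Arntl lower at -1.32 (-2.76 to -0.09). In the stricter cells 3 of 8 clock genes were past 2-fold higher and none lower, with a median of 0.67. Glucocorticoid genes had none of 8 past 2-fold.

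Receptors for BDNF and HGF, the factors deleted in the lung mutants, were scarce in these cells. Ntrk2, the gene of the BDNF receptor TrkB, had 1.95, 1.56, 1.56 and 0 CPM, against 27.2, 28.9, 33.7 and 9.09 CPM in blood endothelium. Ngfr had no UMI in any library. For scale, 3 UMIs stand for 2.93, 4.69, 4.67 and 5.25 CPM, which is not an upper limit. Of 9 neurotrophin genes only Sort1 could be compared in the Bdnf pair, at -0.87 (-1.86 to 0.03), and none in the Hgf pair. Met, the HGF receptor gene, had 28.3, 29.7, 9.33 and 8.76 CPM, with a ratio of 0.07 (-0.85 to 0.95) in the Bdnf pair and too few UMIs in the Hgf pair. It was found in 3.11 and 2.86% of cells of the Hgf control and Hgf iPCKO libraries. The 9 listed genes of the HGF and MET pathway summed to 149, 67.2, 35.8 and 58.7 CPM in lymphatic cells, against 106, 118, 90.5 and 86.6 CPM in blood endothelium. Bdnf itself had 1, 1, 1 and 0 UMIs and Hgf 7, 2, 2 and 0 UMIs in the lymphatic cells, so that these cells do not check the deletion.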

How the data were processed

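Single-cell RNA sequencing (BD Rhapsody whole transcriptome) of 4 lung and 2 cortex libraries was deposited as unfiltered matrices of genes by barcodes. Per the labels and the methods, the authors aligned reads with STARsolo (STAR 2.7.10a) to GRCm39 and divided reads that match several genes by expectation maximisation. The deposited values are therefore estimated counts of UMIs (expected counts), with 8.50 to 9.95% of the entries in a library not whole, and they were rounded for detection and for intervals. The Gencode release is stated as vM33 in one place and M26 in another. Coordinates come from Gencode vM39 on the same assembly and promoter windows from RefSeq on GRCm38.p6.

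The lung libraries held 169814433, 186701379, 73446420 and 69403166 UMIs. Counts were summed over the cells of a library and scaled to 1000000 (CPM). Ratios carry conditional exact intervals at 95%, and ratios to a group without a UMI used 3 UMIs in its place. Genes with at least 30 UMIs over both groups were compared, and a gene was counted as higher or lower past 2-fold. No p-value was computed, since each genotype is 1 library of 2 mice. Named genes are the 6 markers, the 10 highest and 10 lowest genes of each pair and the 12 highest and 12 lowest against blood endothelium. They were ranked by the interval bound nearest 0, and those of a pair needed a UMI in at least 10% of cells in 1 library. Examples from 35 gene lists and the 10 highest and lowest genes of the stricter group were added, and further genes such as Ccnd2 were named after their values were seen. The members and lists were chosen with earlier results of these data known. On simulated counts the comparison recovered 100% of genes changed 4-fold in the Bdnf pair (7583 genes in the step) and 99% in the Hgf pair (6455 genes), and called 1.48 and 1.50% of unchanged genes. These counts were Poisson draws from the control sums, without variation between cells, animals or libraries. Changes were planted only in genes with expected counts well above the minimum. The rates thus cover counting error only and are not error rates of the real pairs. Python 3.11.15, numpy 2.4.6, scipy 1.17.1, pandas 2.3.3 and scanpy 1.11.5 (Scrublet, expected rate 0.1) were used. The alternatives changed the depth limit, the marker and exclusion limits, mitochondrial share, doublets, scaling, weight of cells and count minimum.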

Additional observations from a re-analysis of the deposited data

Results flagged for a closer look

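A set of 9 genes, all of them abundant in airway or alveolar epithelium, lay on opposite sides of 0 in the Bdnf and Hgf pairs, lower in the Bdnf iPCKO and higher in the Hgf iPCKO lymphatic cells. The difference between the pairs was not tested. The log2 ratios in the Bdnf and the Hgf pair were -2.88 and 2.85 for Cbr2, -4.15 and 2.17 for Ces1d, and -3.82 and 2.76 for Cyp2f2. They were -3.78 and 1.52 for Gstm2, -3.97 and 1.88 for Scgb3a2, and -2.99 and 1.15 for Sec14l3. Selenbp1 had -1.44 and 3.27, Sftpb -1.40 and 1.43, and Wfdc2 -3.92 and 1.66. The barcodes left out of the stricter group held 87.5 and 16.8% of the epithelial UMIs of the Bdnf control and Bdnf iPCKO lymphatic cells and 28.8 and 73.4% of those of the Hgf control and Hgf iPCKO cells. In the Bdnf control library 65.0% of the Cbr2 UMIs were in 1 barcode, and in the Hgf iPCKO library 57.1% were.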

How the results depend on the processing

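With 1 library per genotype the alternatives show only how the values move with the choice of cells and counts. Requiring no exclusion UMI left 76 cells in the Bdnf control library, and asking for only 2 markers gave 181 in the Bdnf iPCKO library. Past 2-fold, the Bdnf pair had 533 genes higher and 1020 lower at a minimum of 10 UMIs, 21 and 64 at 100 UMIs, 76 and 66 after thinning to 1500 UMIs, 202 lower with at least 4 markers and 127 lower in the stricter cells. The Hgf pair had 705 higher and 1036 lower at 10 UMIs, 92 and 85 at 100 UMIs, and 143 and 150 after thinning. Against blood endothelium, 993 genes were higher at 10 UMIs. Genes past 2-fold in the Bdnf pair whose ratio changed sign were Ccna2 (0.82 with at least 4 markers), Scgb3a2 and Cbr2 (1.21 and 0.30 at a mitochondrial share of at most 10%), and Scgb3a2 and Gsto1 (1.50 and 1.11 without the deepest barcode of each library). In the stricter cells of that pair they were Scgb3a2 (1.76), Cyp2f2 (0.066), Cbr2 (1.04), Cxcl15 (0.18), Emp2 (0.21), Lamp3 (0.32), Sftpb (0.92), Sftpc (0.46) and Slc34a2 (0.32). In the Hgf pair Cyp2f2 was at -0.57 in the stricter cells and Scgb3a2 at -0.021 without the deepest barcode. Ratios under 2-fold changed sign too, such as those of Mmrn1 (0.18 to -0.15), Flt4 (0.08 to -0.26) and Flt1 (-0.10 to 1.36) in the stricter Bdnf cells. The stricter group and the removal of the deepest barcode were chosen after seeing the data, and the cause of these changes was not tested. Over the alternatives in which the gene could be compared, the Hgf ratio ran from 1.47 to 2.09 for Lyve1, 4.37 to 6.80 for Lpl, 3.09 to 3.43 for Fabp4 and -1.54 to -1.38 for Ccl21a, and the Bdnf ratio from 0.88 to 1.24 for Kdr and 1.64 to 2.57 for Lpl. No paired analysis was possible because each genotype is 1 library. Levels of a few CPM rest on single UMIs in these cells.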
